A study of Mus musculus with 21 samples.

Results

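The D cyclins, their kinase partners and the inhibitors of those kinases were followed in blood stem cell preparations and mammary tumours of MMTV-PyMT mice, which carry a mammary tumour transgene driven by the mouse mammary tumour virus promoter. The set was chosen by name and holds 10 genes, namely Ccnd1, Ccnd2, Ccnd3, Cdk4, Cdk6, Cdkn1a, Cdkn1b, Cdkn1c, Cdkn2c and Cdkn2d, out of 20391 genes listed in at least 1 of 4 deposited tables. All 10 members were listed in each table and all 10 passed the filter on low values in each comparison. RNA was sequenced from 21 libraries in 7 groups of 3 biological replicates. Hematopoietic stem cells (HSC) came from sedentary mice at week 12, from physically active mice at week 12, and at week 14 from sedentary mice that had been transplanted with cells of a physically active mouse. Mammary tumours came from sedentary and from physically active mice at week 12 and at week 18. All 7 groups carried the MMTV-PyMT genotype, so no group was free of the transgene. The transplant group differed from the others in week as well as in transplantation, and these cannot be told apart.

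D-type cyclins bind the kinases CDK4 and CDK6, and the active complexes phosphorylate the retinoblastoma protein and its relatives, which releases E2F transcription factors and lets a cell pass from G1 into S phase. The INK4 inhibitors, here Cdkn2c (p18) and Cdkn2d (p19), bind CDK4 and CDK6 themselves, whereas the CIP/KIP inhibitors Cdkn1a (p21), Cdkn1b (p27) and Cdkn1c (p57) bind cyclin-CDK complexes more broadly. Long-term blood stem cells divide rarely and are known for high Cdkn1c, and in mammary epithelium Ccnd1 is the best known D cyclin and is needed for several oncogene-driven mammary tumours.

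The members lie on 7 mouse chromosomes in the GENCODE M21 annotation of GRCm38, the assembly also known as mm10, which the submitters' processing notes name. Ccnd1 lies at chr7:144929931-144939925 on the minus strand and Cdkn1c on the same chromosome at chr7:143458339-143461050, also on the minus strand. Ccnd2 (chr6:127125162-127152193, minus) and Cdkn1b (chr6:134920401-134925513, plus) share chromosome 6. Ccnd3 (chr17:47505051-47599691, plus) and Cdkn1a (chr17:29090976-29100727, plus) share chromosome 17. Cdk4 lies at chr10:127063534-127067920 on the plus strand and Cdk6 at chr5:3341485-3531008 on the plus strand. Cdkn2c lies at chr4:109660876-109667189 and Cdkn2d at chr9:21288410-21291407, both on the minus strand. Exons of a gene on the opposite strand covered 19.7% of the exonic bases of Cdk4 (Tspan31), 23.4% of those of Ccnd1 (LTO1) and 30.7% of those of Cdkn1c (Gm44732). The library kit keeps strand, but the strand setting of the counting is not given in the sources used here, so reads of these partners may be included.

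Promoter sequence from RefSeq (GRCm38.p6) was at hand for 7 of the 10 members and was searched, in the 250 bases before each start, for CACGTG, the E-box bound by MYC and its partners, and for CATGNNNNNNCATG, the spaced core pair of a p53 response element. Both motifs read the same on both strands, and their fixed letters cannot share a base. The Cdk4 promoter is shown because Cdk4 was among the 3 members that count tests called in transplant HSC, and because it held 4 copies of CACGTG, with first bases 172, 118, 98 and 11 bases before the start. At least 1 copy was present in 6.02% of 32851 promoters of this length, and at least 4 copies in 7 promoters (0.0213%). The Cdkn1a promoter of the upstream start is shown because Cdkn1a was the only member with an unadjusted p under 0.05 in a tumour comparison. It held 1 CATGNNNNNNCATG, 48 bases before the start, a motif found in 0.49% of the same promoters. The window before the other Cdkn1a start, chr17:29093519-29093768, held neither motif and is not shown. Capitals mark the motif letters, and both windows shown are on the plus strand, chr10:127063285-127063534 for Cdk4 and chr17:29090729-29090978 for Cdkn1a.
Cdk4: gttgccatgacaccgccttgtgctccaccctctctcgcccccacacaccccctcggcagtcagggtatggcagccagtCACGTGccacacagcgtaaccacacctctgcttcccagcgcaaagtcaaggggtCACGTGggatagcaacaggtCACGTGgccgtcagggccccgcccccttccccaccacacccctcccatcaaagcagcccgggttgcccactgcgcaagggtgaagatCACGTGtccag
Cdkn1a: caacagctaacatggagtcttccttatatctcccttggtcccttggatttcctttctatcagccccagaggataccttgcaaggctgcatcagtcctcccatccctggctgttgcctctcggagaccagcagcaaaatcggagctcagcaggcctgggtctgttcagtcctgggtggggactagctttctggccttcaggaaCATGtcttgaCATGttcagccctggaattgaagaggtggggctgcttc
Among the other members with a promoter, Cdk6 held 1 CACGTG, and Ccnd3, Cdkn1b, Cdkn2c and Cdkn2d held neither motif in these windows. Ccnd1, Ccnd2 and Cdkn1c are named only. A match is a description of letters and not a measured binding site.

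Several libraries need naming before the results. Recovered reads per library ran from 20838963 to 28973775 in tumours and from 16406889 to 72417315 in HSC, where replicate 3 of each group was the deepest. The library with number 6, active HSC replicate 2, differed between the HSC tables at 13086 of 13380 shared genes, while the other active libraries differed at 4 genes each. Unless stated, its value is that of the sedentary and active table, and the value from the active and transplant table is called the other column. Of 12 HSC markers, 11 could be read. Their medians were 747 normalised reads per kb for Kit and 875 for Ly6a, but 38.7 for Procr, 13.4 for Slamf1 and 5.65 for Fgd5, which mark long-term stem cells. In the same libraries Cd48 stood at 1919, the proliferation gene Mki67 at 3559 and the myeloid granule gene Mpo at 49257 normalised reads per kb. The cells are therefore called HSC here only as the labels name them. Summed neutrophil and myeloid progenitor markers (11 of 12 read) ran from 87366 to 126986 normalised reads in sedentary, 155086 to 454670 in active and 326046 to 418152 in transplant libraries. Lymphoid markers (7 of 10 read) ran from 3864 to 4495, from 156 to 2879 and from 195 to 503 in the same order. Blk and Mzb1 were at 0 in all transplant libraries, but both had a median of 0 over all HSC libraries. They reached at most 16.6 and 4.70 normalised reads in any of them. Megakaryocyte and erythroid markers (8 of 9 read) ran from 2215 to 4192, from 4660 to 24128 and from 8667 to 24240 in that order of groups. This sum was mainly Itga2b, Vwf and Pf4, which reached 12188, 6570 and 5743. The erythroid genes Klf1, Car1 and Hbb-bs reached at most 42.3, 43.2 and 19.8 in any HSC library. In the other column of active replicate 2 the myeloid, lymphoid and megakaryocyte sums were 90951, 3721 and 3180, which lay within or near the sedentary ranges. Summed HSC markers ran from 28102 to 31001 in sedentary, 19575 to 29020 in active and 18288 to 20809 in transplant libraries. Most of this sum was Cd34 (6129 to 18598 normalised reads over all HSC libraries), Kit (5288 to 7517) and Cd48 (1508 to 2659). Procr, Slamf1 and Fgd5 reached at most 124, 467 and 74.7, so the sum says little about markers of long-term stem cells. The part of these markers in the members' differences was not tested, and in bulk RNA fewer cells of a type and less RNA per cell cannot be told apart.

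In HSC the level of each member, as normalised reads per kb of exon, ordered the family from Cdk4, with a median of 3720 over 9 libraries (range 2527 to 4877), to Cdkn1c, with a median of 15 (11.2 to 22.9). Between them came Ccnd2 at 1298, Ccnd3 at 1043, Cdkn2d at 870, Cdkn1a at 701, Cdk6 at 272, Cdkn1b at 263, Cdkn2c at 254 and Ccnd1 at 106. Cdk4 exceeded Ccnd2, Cdkn2d exceeded Cdkn1a, Cdkn1a exceeded Cdk6 and Ccnd1 exceeded Cdkn1c in 9 of 9 libraries. Other neighbours changed places, since Ccnd2 exceeded Ccnd3 in 6, Ccnd3 exceeded Cdkn2d in 5, Cdk6 exceeded Cdkn1b in 5, Cdkn1b exceeded Cdkn2c in 5 and Cdkn2c exceeded Ccnd1 in 7 of 9. Cdkn1c, the inhibitor tied to stem cell rest, was thus the lowest member in every HSC library. In transplant replicate 1 it was all but level with Ccnd1, at 22.90 against 22.93 normalised reads per kb.

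The composition of the D cyclins separated the tissues. In HSC, Ccnd1 made up 1.16% to 10.7% of the reads per kb of the 3 cyclins (median 3.84%), Ccnd2 35.4% to 59.6% (median 50.1%) and Ccnd3 36.6% to 63.2% (median 40.5%). In tumours Ccnd1 made up 53.1% to 92.5% (median 85.2%), Ccnd2 1.82% to 27.1% (median 5.46%) and Ccnd3 5.68% to 19.8% (median 9.50%). The lowest tumour share of Ccnd1 lay above the highest HSC share. With the longest transcript as length in place of all exons, the HSC medians became 41.2% for Ccnd2 and 51.3% for Ccnd3, so the order of these 2 in HSC depends on the gene model. The CIP/KIP inhibitors also differed in make-up, with Cdkn1a at 62.6% to 77.8% of their reads per kb in HSC and Cdkn1b at 47.7% to 75.1% in tumours. Cdkn2d made up 72.8% to 83.0% of the reads per kb of Cdkn2c and Cdkn2d together in HSC and 28.7% to 51.1% in tumours. Tissues were extracted with different kits and lie in different tables, so these shares are a description with no test.

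**Figure D1:**
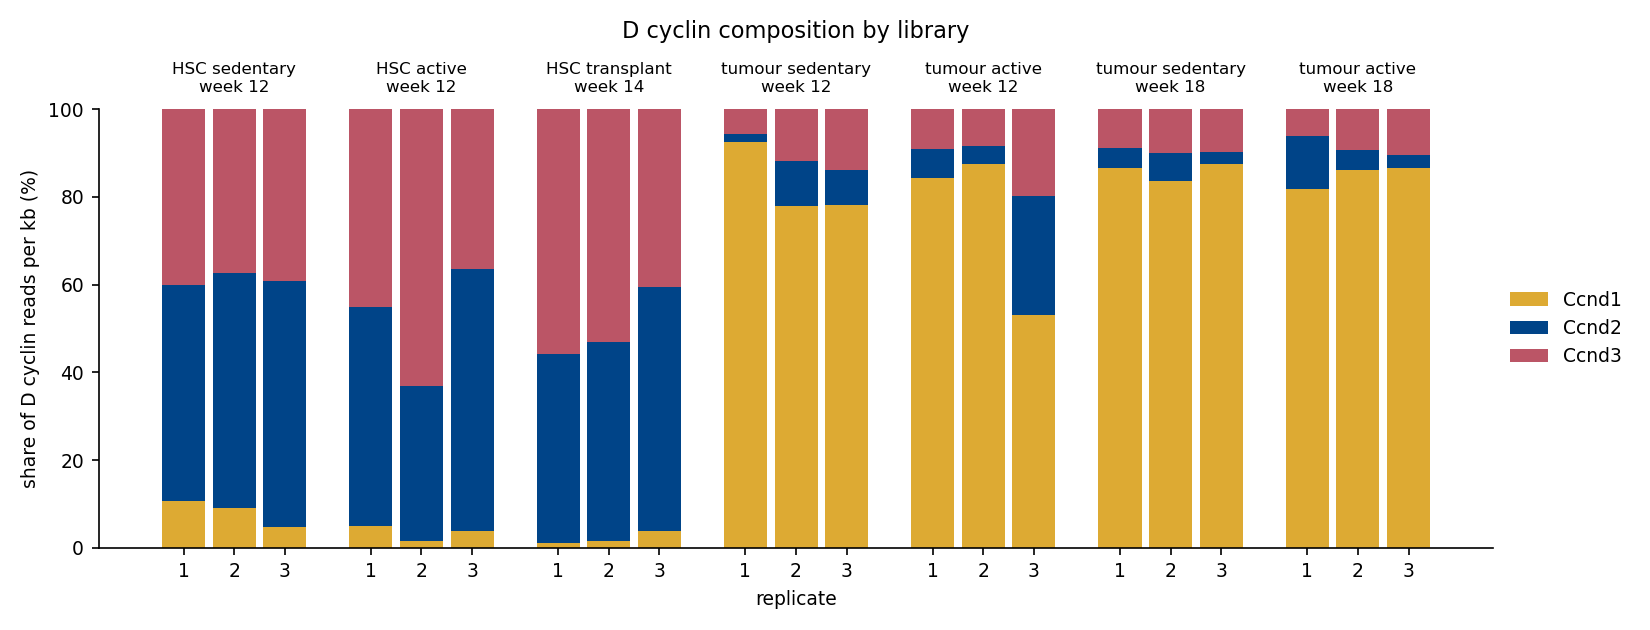
Stacked bars give the share (%) of Ccnd1, Ccnd2 and Ccnd3 in their summed reads per kb for each of 21 libraries, grouped by tissue, activity and week, with the replicate number on the x axis. Ccnd1 takes 1.16% to 10.7% in HSC and 53.1% to 92.5% in tumours, and the lowest tumour share is that of week 12 active replicate 3.

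Of the D cyclins in HSC, Ccnd1 varied most and Ccnd3 least. Ccnd1 stood at 1331, 1141 and 597 normalised reads in sedentary replicates 1, 2 and 3. In active HSC it stood at 510, 128 and 498, with 658 in the other column of replicate 2. In transplant HSC it stood at 108, 134 and 447. All active and all transplant libraries were below all sedentary ones, except that the other column lay above sedentary replicate 3, and the 12.3-fold range over 9 libraries was the widest of any member. Ccnd2 stood at 12211, 13585 and 14477 in sedentary, at 10427, 6228 and 15441 in active (11754 in the other column of replicate 2) and at 8021, 8401 and 12997 in transplant HSC. The Ccnd2 groups overlapped, with transplant replicates 1 and 2 low and the place of active replicate 2 set by the column, lowest of all in one and above active replicate 1 in the other. Ccnd3 lay between 8734 and 10380 in all 9 libraries, a range of 1.19-fold, the narrowest of any member.

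**Figure D2:**
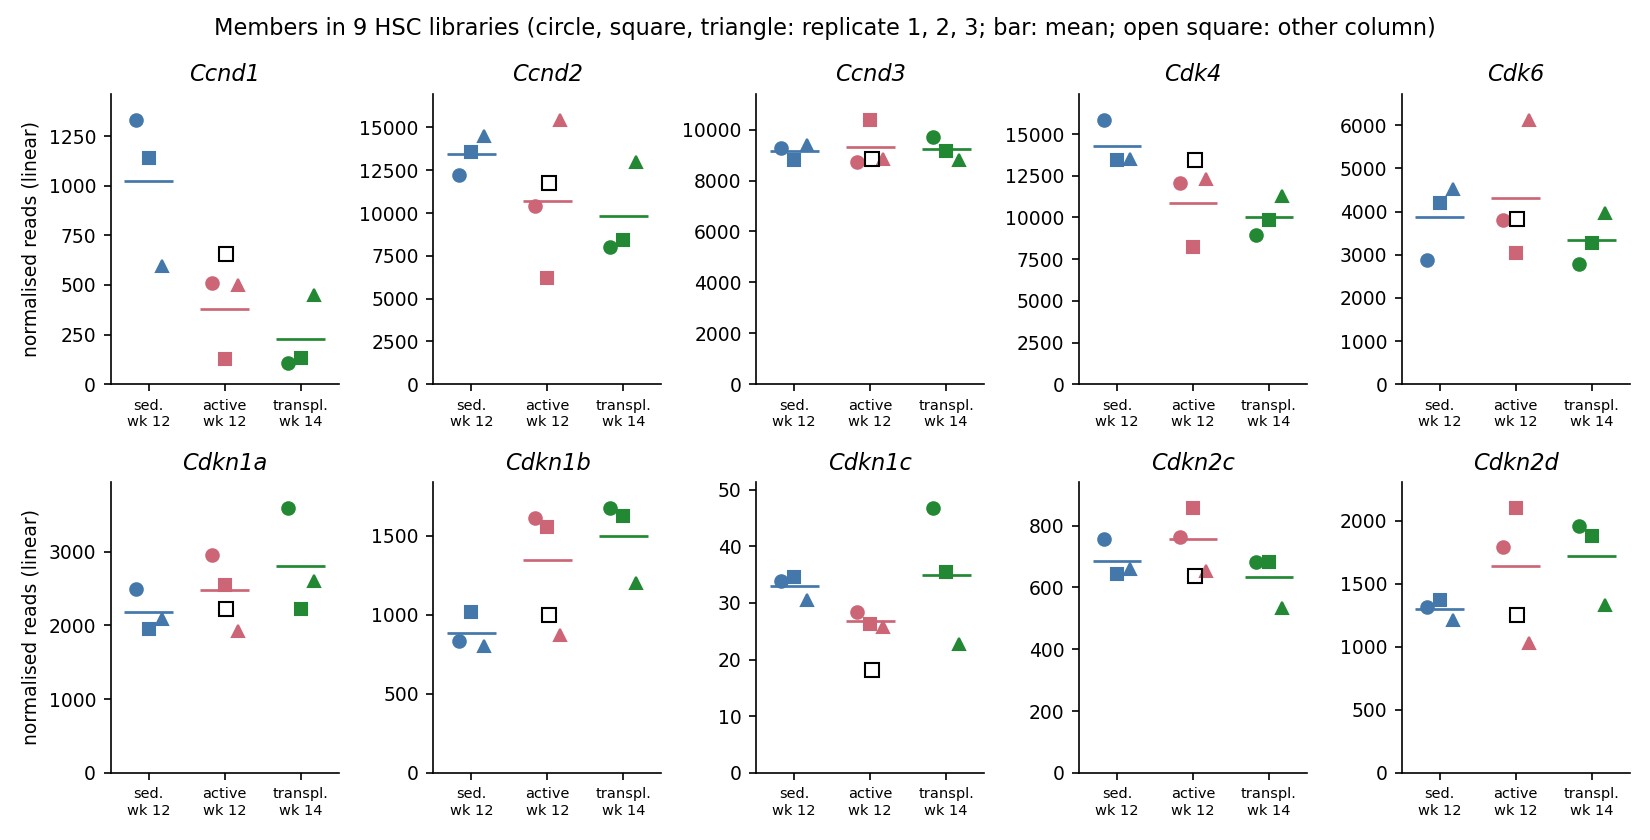
Each panel plots the normalised reads (linear axis from 0) of 1 member in the sedentary week 12, active week 12 and transplant week 14 HSC libraries, with circles, squares and triangles for replicates 1, 2 and 3, a bar for the group mean and an open square for the other column of active replicate 2. Ccnd1 and Cdk4 are higher in sedentary than in transplant libraries, Cdkn1b is lower, and Ccnd3 spans 8734 to 10380.

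For the kinases in HSC, the sedentary libraries stood apart for Cdk4 and not for Cdk6. Cdk4, the more abundant catalytic partner, stood at 15847, 13442 and 13499 normalised reads in sedentary, at 12087, 8211 and 12279 in active (13474 in the other column) and at 8955, 9845 and 11291 in transplant HSC. Every transplant and every active library was below every sedentary one, but the other column lay within the sedentary range. Cdk6 stood at 2873, 4207 and 4522 in sedentary, at 3810, 3035 and 6121 in active (3838 in the other column) and at 2783, 3283 and 3961 in transplant HSC, and all groups overlapped. Cdk6 made up 4.04% to 10.4% of the reads per kb of both kinases.

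Among the CIP/KIP inhibitors in HSC, Cdkn1b was the one whose transplant and sedentary libraries separated. Cdkn1b stood at 832, 1017 and 804 normalised reads in sedentary, at 1611, 1558 and 871 in active (998 in the other column) and at 1672, 1623 and 1199 in transplant HSC. Active replicates 1 and 2 lay with the transplant libraries and replicate 3 with the sedentary ones. Cdkn1a stood at 2490, 1945 and 2087 in sedentary, at 2956, 2546 and 1917 in active (2224 in the other column) and at 3585, 2227 and 2598 in transplant HSC, with overlap throughout. Cdkn1c stood at 33.8, 34.6 and 30.5 in sedentary, at 28.4, 26.2 and 25.7 in active (18.1 in the other column) and at 46.7, 35.4 and 22.8 in transplant HSC. Active Cdkn1c was below sedentary in each library, and the transplant libraries spanned both. These values rest on few recovered reads, 20, 19 and 59 in sedentary and 23, 18 and 60 in active libraries. No counting error was computed for them.

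The INK4 inhibitors overlapped between all HSC groups. Cdkn2d stood at 1311, 1369 and 1214 normalised reads in sedentary, at 1790, 2096 and 1026 in active (1250 in the other column) and at 1960, 1875 and 1328 in transplant HSC. In active and transplant HSC replicates 1 and 2 were high and the deeper replicate 3 low. Cdkn2c ranged from 534 to 856 over the 9 libraries, with transplant replicate 3 at the bottom and active replicate 2 at the top, where its other column was 637.

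Transplant HSC held less Ccnd1 and Cdk4 and more Cdkn1b than sedentary HSC in 3 of 3 libraries, by a fitted 5.16-fold, 1.42-fold and 1.69-fold, while Ccnd3 differed by 1.01-fold. Differences were tested with limma on log2(value + 1), for genes whose mean reached 1 in one of the groups, and called where the Benjamini-Hochberg adjusted p was under 0.05. Between transplant and sedentary HSC, 0 of 10 members were called, against 11.7% of 13329 genes (1058 rose and 495 fell). At an unadjusted p under 0.05 there were 3 members (Ccnd1, Cdk4 and Cdkn1b) against 31.7% of all genes, and the groups did not overlap for the same 3 members against 38.8% of all genes, so neither share exceeded the background. Cdkn1b was 0.75 higher (SE 0.18, 95% interval 0.31 to 1.20, limma adjusted p = 0.0515). Ccnd1 differed by -2.37 (SE 0.61, interval -3.87 to -0.86, limma adjusted p = 0.0606) and Cdk4 by -0.51 (SE 0.14, interval -0.85 to -0.17, limma adjusted p = 0.0690). The count tests on recovered reads placed these 3 members on the other side of the threshold. With edgeR, Ccnd1 and Cdk4 fell and Cdkn1b rose, with adjusted p of 0.0201, 0.0240 and 0.0118, against 19.3% of genes called. With DESeq2 the same 3 members were called, with adjusted p of 0.0141, 0.00239 and 0.000362, against 24.8% of the genes that had an adjusted p. No other member was called by either count test.

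Transplant replicate 3 bore on these values. Without it limma called 4 members in transplant against sedentary HSC, with Ccnd1 at -3.00, Ccnd2 at -0.70, Cdkn1b at 0.91 and Cdkn2d at 0.57, against 12.6% of all genes called in that fit. With the spread pooled over 9 HSC libraries it called none, and Ccnd1 had an adjusted p of 0.106. The remaining members had limma intervals that included 0, from Ccnd3 at 0.01 (-0.24 to 0.26) and Cdkn1c at 0.03 (-0.62 to 0.68) to Cdkn2d at 0.39 (-0.05 to 0.83) and Ccnd2 at -0.48 (-1.01 to 0.05). Cdk6 differed by -0.20 (-0.76 to 0.36), Cdkn2c by -0.12 (-0.49 to 0.24) and Cdkn1a by 0.35 (-0.17 to 0.87).

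**Figure D3:**
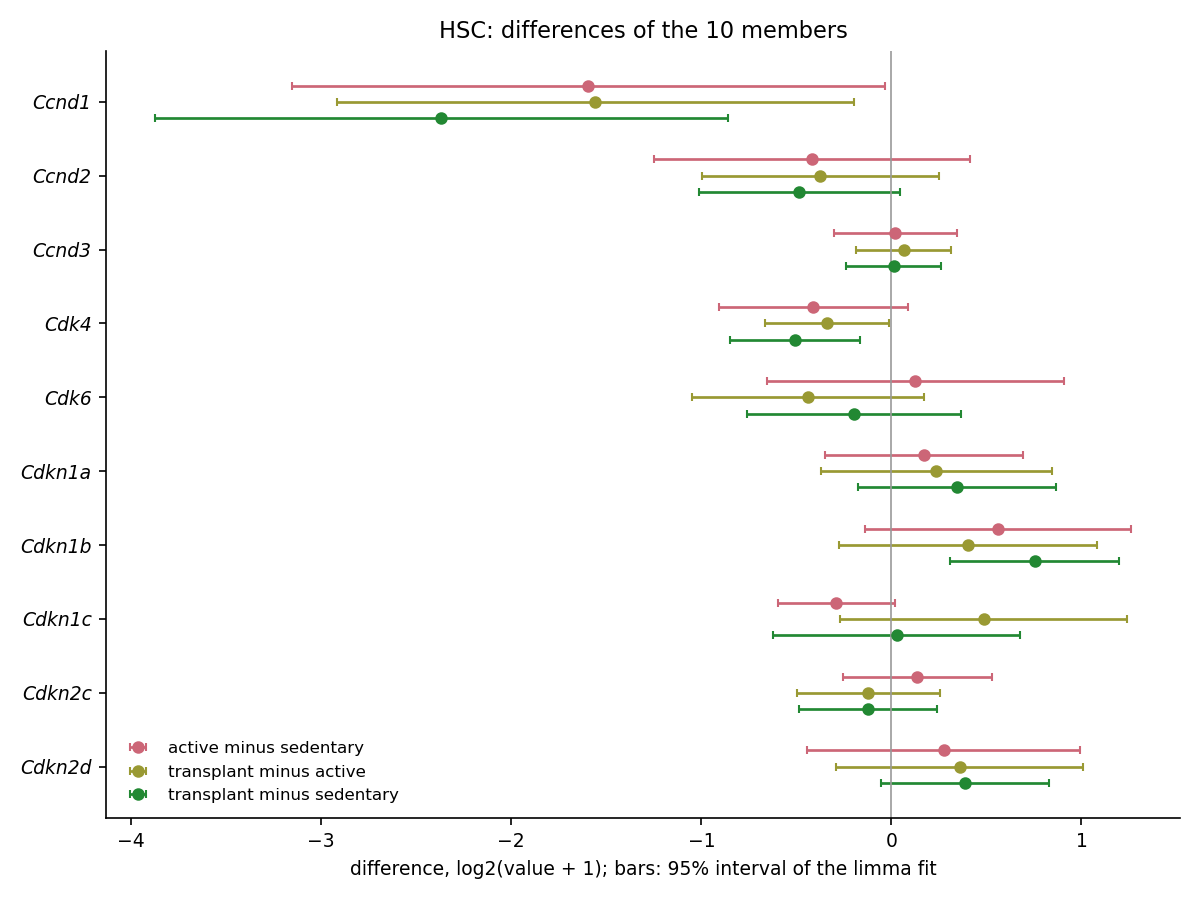
Points give the difference of each member on the log2(value + 1) scale in the 3 HSC comparisons, with bars for the 95% interval of the limma fit and a line at 0. In transplant minus sedentary, the intervals of Ccnd1 (-3.87 to -0.86), Cdk4 (-0.85 to -0.17) and Cdkn1b (0.31 to 1.20) lie to 1 side of 0, and the comparisons share libraries.

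Between active and sedentary HSC, which asks what physical activity does without transplantation, 0 of 10 members were called and limma called 0% of 13513 genes. At an unadjusted p under 0.05 there were 1252 genes (9.27%) and 1 member. Ccnd1 differed by -1.59 (SE 0.63, interval -3.15 to -0.03, limma adjusted p = 0.475), and it was lower in 3 of 3 active libraries. The groups did not overlap for 3 members, all lower in active HSC (Ccnd1, Cdk4 and Cdkn1c), against 19.7% of all genes in either direction. Cdk4 differed by -0.41 (interval -0.91 to 0.09), Cdkn1c by -0.29 (-0.60 to 0.02) and Cdkn1b by 0.56 (-0.14 to 1.26). Active replicate 2 decided much of this: with the other column Ccnd1 differed by -0.81, Cdk4 by -0.17 and Cdkn1b by 0.35, and without that library Ccnd1 differed by -0.94 and Cdk4 by -0.23. The count tests called no member, against 0% of genes with edgeR (1712 genes at an unadjusted p under 0.05) and 2.07% with DESeq2. In the authors' deposited table, Ccnd1 had a log2 fold change of -1.44 with an adjusted p of 0.0853, given here as active over sedentary.

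Transplant and active HSC were compared within their own table, where active replicate 2 is the column called the other one above. There 0 of 10 members were called against 0.0513% of 13633 genes. Ccnd1 differed by -1.56 (SE 0.55, interval -2.92 to -0.20, limma adjusted p = 0.248) and Cdk4 by -0.34 (SE 0.13, interval -0.66 to -0.01, limma adjusted p = 0.271). These 2 members had an unadjusted p under 0.05, against 17.8% of genes, and were lower without overlap in transplant HSC, against 25.2% of genes in either direction. With active replicate 2 taken from the sedentary and active table, Ccnd1 differed by -0.77 and Cdk4 by -0.10. Cdkn1c was 0.48 higher (-0.27 to 1.24) and Cdk6 differed by -0.44 (-1.05 to 0.17). The count tests called no member, against 0.00734% of genes with edgeR and 8.64% with DESeq2, and the authors' deposited table gave Ccnd1 a log2 fold change of -1.28 with an adjusted p of 0.0553. The replicate numbers of these libraries met the check for pairing given under processing. With the replicate block limma called 0 genes in place of 7, with no member among them in either fit.

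Of the genes around the family, limma called some in transplant against sedentary HSC and none in the other HSC comparisons. The counts per list stand against the 11.7% of all 13329 genes called, and those of the first 2 lists do not stand out from it. The cyclin E and further INK4 list had 1 of 12 genes called, Cdkn2a, which encodes p16 and Arf and rose by 3.62 (limma adjusted p = 0.0193). Its reads were 21, 11 and 29 in transplant and 0, 0 and 4 in sedentary libraries, a ratio of 12.2 per read sequenced with an exact 95% interval of 4.51 to 46.1 for counting error only, and active replicate 2 held 105 reads against 3 and 1 in the remaining active libraries and 0 in its other column. Of 17 pocket protein and E2F genes, Rb1, the retinoblastoma gene, rose by 0.73 (limma adjusted p = 0.0337) and E2f5, a repressive E2F, fell by 0.72 (limma adjusted p = 0.0494). Of 17 genes of the FOXO and quiescence list 4 rose and 1 fell, with a list median of 0.54 against 0.00 for all genes. At an unadjusted p under 0.05 there were 14 of the 17, against 31.7% of all genes. The groups did not overlap for 10 that were higher and 3 that were lower, against 38.8% of all genes in either direction. The list was not tested as a set. Gfi1, a transcriptional repressor of stem and myeloid cells, rose by 1.52, Klf4 by 1.11 and Klf6 by 1.16, and Ndn, a growth suppressor, fell by 3.41, with limma adjusted p from 0.0106 to 0.0376. Ccng2, a FOXO target, was the other gene that rose, by 1.38 (limma adjusted p = 0.0427), and is named here with its value known. Gfi1, Klf4 and Klf6 are also expressed in myeloid cells, and the myeloid marker sums given above moved with them. Their part was not tested.

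Inputs of MYC and mitogens to the D cyclins had 2 of 17 genes that rose and 1 that fell in transplant against sedentary HSC. Myc itself, whose protein binds CACGTG, fell by 0.66, from 12298 ± 1030 to 7795 ± 835 normalised reads (SD, n = 3, limma adjusted p = 0.0348). Mxd1 and Mxi1, whose proteins compete with MYC for its partner MAX, rose by 1.51 and 0.96 (limma adjusted p = 0.0162 and 0.0354). Binding of MYC to the Cdk4 promoter was not measured. limma called none of 18 S phase and mitosis genes. At an unadjusted p under 0.05 there were 4, against 31.7% of all genes. edgeR called 2 and DESeq2 4, against 19.3% and 24.8% of genes. Of the list 13 were lower and 5 higher, and the list median was -0.19. The smallest p there was that of Mcm7, a replicative helicase subunit, at -0.49 (limma adjusted p = 0.0731). limma called none of 15 p53 targets beside Cdkn1a, and 5 had an unadjusted p under 0.05, against the same 31.7%. edgeR called 2 and DESeq2 5, against the same 19.3% and 24.8%. limma called 1 of them with a mean minimum of 10 (15.1% of all genes), with replicates 1 and 2 alone (14.7%) or without sedentary replicate 3 (11%). Of this list 11 were higher, and Trp53, the gene of p53 itself, which the list includes, differed by -0.41 (limma adjusted p = 0.0575). The 6 lists together hold 96 entries, with Rbl2 in both the pocket protein and the quiescence list. limma called 11 of these entries in this comparison (11.5%), a share no higher than the 11.7% of all genes. edgeR called 23 (24%), against 19.3% of all genes, and DESeq2 31, against 24.8% of the genes that had an adjusted p. limma called 12 with a mean minimum of 10 (15.1% of all genes) and 7 with a pseudocount of 0.1 (9.51%). With a term for replicate 3 that was chosen after seeing the data it called 6 (8.46%). The limma count was 10 without transplant replicate 3 (12.6% of all genes), 12 with replicates 1 and 2 alone (14.7%) and 3 without transplant replicate 1 (3.6%). It was 1 without sedentary replicate 1 (2.21%), sedentary replicate 2 (1.77%) or transplant replicate 2 (1.91%). It was 0 with the spread pooled over 9 HSC libraries (0.0225%) or with the replicate block (0.713%). All 11 kept their sign under the 16 alternatives run, and Gfi1 was past the threshold in 14 of them. Klf4 and Mxd1 were past it in 10, and Cdkn2a, Klf6 and Myc in 9. Ccng2, Mxi1, Ndn and Rb1 were past it in 8, and E2f5 in 5.

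In active against sedentary HSC no gene of these 6 lists was called. The smallest p per list belonged to Ccne1 (-0.39), E2f5 (-0.73), Mcm7 (-0.36), Btg2 (1.02), Ndn (-2.45) and Mxd1 (1.28), with limma adjusted p of 0.475 or 0.476. In transplant against active HSC they belonged to Cdkn2a (3.25), Rb1 (0.66), Mcm7 (-0.35), Gdf15 (2.02), Gfi1 (1.17) and Mycl (-1.59), with limma adjusted p from 0.167 to 0.277. S phase and mitosis genes were lower for 17 of 18 in active against sedentary HSC (list median -0.19) and for 14 of 18 in transplant against active HSC (list median -0.15), each against a median of 0.00 over all genes. The summed list ran from 222094 to 229771 normalised reads in sedentary and from 185242 to 227956 in active HSC, so these groups overlapped. It ran from 176040 to 212348 in transplant HSC and was 213517 in the other column of active replicate 2, which the transplant against active comparison used. These counts of direction were not tested.

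Over the 9 HSC libraries, the genes most like Cdk6 were Bdp1 (Pearson r = 0.982), Klhl11 (0.977) and Asxl2 (0.976), among 10834 genes with a mean of at least 50. Those most like Cdkn1c were Ddah2 (0.957), Ormdl3 (0.915) and Mrps6 (0.913). Such r values across 9 libraries share depth and group, and are given as a description.

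In tumours the order of levels was another one. Ccnd1 led with a median of 1944 normalised reads per kb over 12 tumours (range 986 to 3530), followed by Cdk4 at 1653, Cdkn1b at 909, Cdkn2c at 371, Cdkn1a at 281, Ccnd3 at 218, Cdkn2d at 203, Ccnd2 at 125, Cdk6 at 80.6 and Cdkn1c at 72.3. Ccnd1 exceeded Cdk4 in 9 and Cdk4 exceeded Cdkn1b in 12 of 12 tumours. Cdkn2c exceeded Cdkn1a in 7, Ccnd3 exceeded Cdkn2d in 7 and Cdk6 exceeded Cdkn1c in 6 of 12, so these neighbours did not hold an order.

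Among the cyclins and kinases the tumour groups overlapped at each week. Ccnd1 stood at 16624, 6310 and 6263 normalised reads in sedentary and at 8900, 10120 and 4644 in active tumours of week 12, and at 9807, 8765 and 9406 in sedentary and 13704, 8682 and 9787 in active tumours of week 18. Cdk4 stood at 4582, 5104 and 4559 in sedentary and at 4805, 5654 and 2937 in active tumours of week 12, and at 10578, 4227 and 5839 in sedentary and 7939, 5638 and 6236 in active tumours of week 18. Ccnd3 lay between 1732 and 2208 in 11 tumours and at 3226 in week 12 active replicate 3. Ccnd2, the D cyclin of many lymphoid and myeloid cells, ran from 571 to 4726, with week 12 active replicate 3 (4726) and week 18 active replicate 1 (4020) far above the other tumours, which reached 1670. Cdkn1b, the leading CIP/KIP inhibitor here, ran from 3312 to 6006, and Cdkn2c, the leading INK4 member, from 661 to 2497.

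Single tumours stood out for several members. Week 12 active replicate 3 had the highest Ccnd2 (4726 normalised reads), Ccnd3 (3226) and Cdkn2c (2497) of the 12 tumours and the lowest Ccnd1 (4644), Cdk4 (2937) and Cdkn1b (3312). Its summed T and B lymphocyte markers (10 of 10 read) were 22550 against 212 to 472 in the other 11 tumours, its adipocyte markers (6 of 6 read) 146836 against 373 to 30344, and its mammary epithelial markers (9 of 9 read) 59982 against 82680 to 147623. Week 18 sedentary replicate 1 had 2081 normalised reads of Cdkn1c against 88.3 to 485 elsewhere, and the highest Cdk4 (10578) and Cdkn1b (6006). Week 12 sedentary replicate 1 had the highest Ccnd1 (16624), Cdk6 (3322) and Cdkn1a (3043). Skeletal muscle markers (9 of 9 read) ran from 64586 to 144487 in week 12 sedentary tumours, from 374 to 1549 in week 12 active, and from 492 to 18906 at week 18. The part of these markers in the members' differences was not tested.

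**Figure D4:**
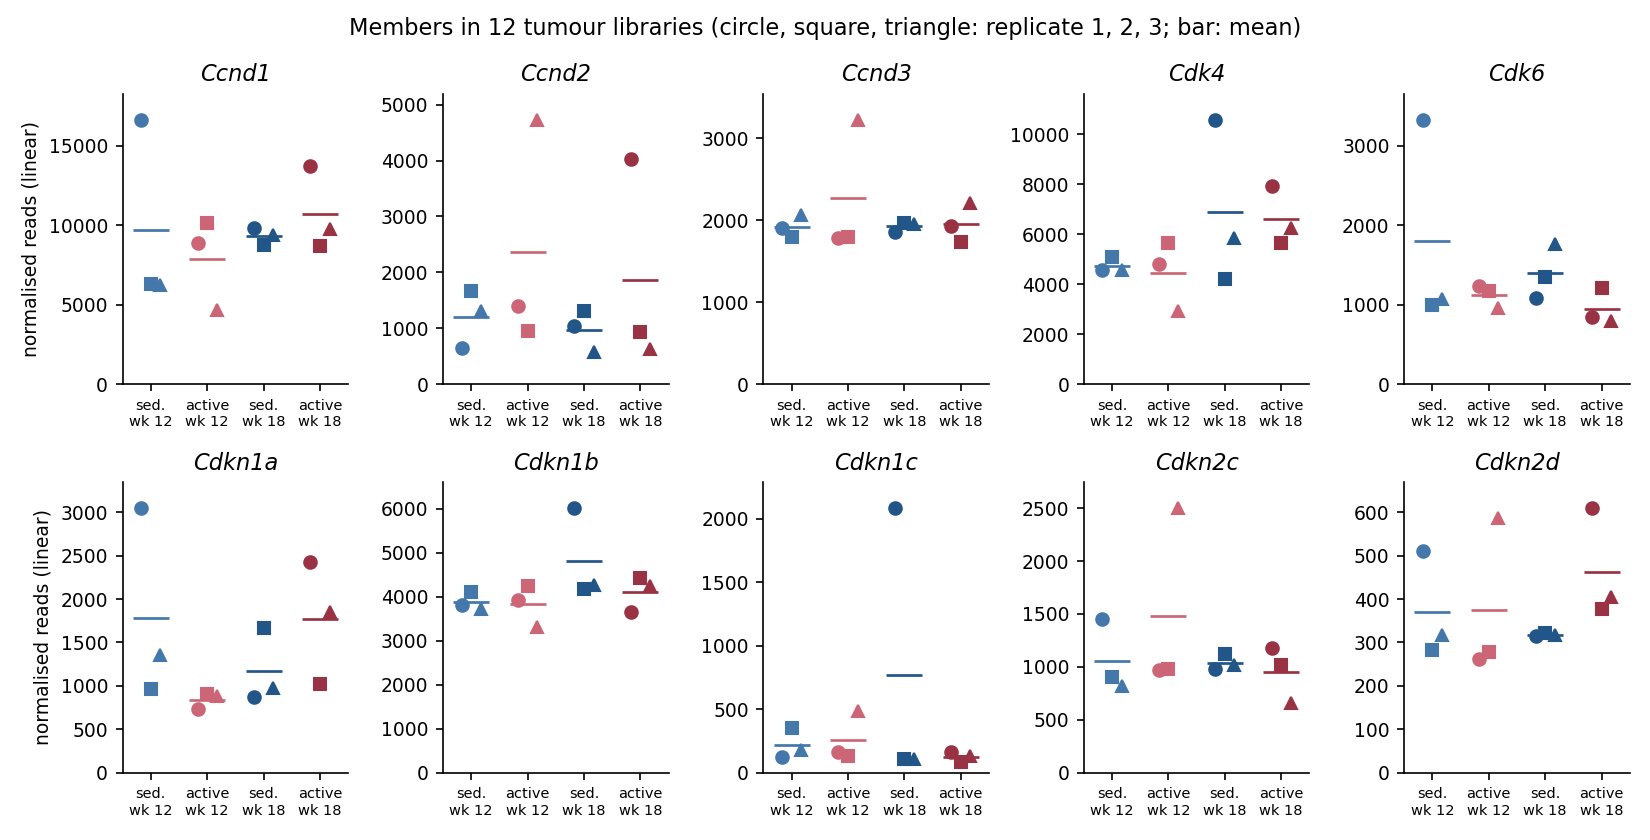
Each panel plots the normalised reads (linear axis from 0) of 1 member in 12 tumours, grouped as sedentary and active at week 12 and at week 18, with circles, squares and triangles for replicates 1, 2 and 3 and a bar for the group mean. Week 12 active replicate 3 stands apart for Ccnd2 (4726), Ccnd3 (3226) and Cdkn2c (2497), and week 18 sedentary replicate 1 for Cdkn1c (2081).

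Between active and sedentary tumours of week 12, 0 of 10 members were called, against 0.517% of 19162 genes, and 0 had an unadjusted p under 0.05, against 4.09%. Cdkn1a, the p53 target whose promoter is shown above, stood at 738, 909 and 882 normalised reads in active and at 3043, 960 and 1358 in sedentary tumours. It was lower in active tumours without overlap, the only member of which this held, against 9.13% of genes. The difference was -0.91 (SE 0.45, interval -2.04 to 0.21, limma adjusted p = 0.970), and -0.44 without sedentary replicate 1. Ccng1, another p53 target, had the smallest p of its list, at -0.59 (limma adjusted p = 0.865), and 11 of 15 genes of that list were lower. So were 15 of 18 S phase, 8 of 12 cyclin E and further INK4, 10 of 17 pocket protein and E2F and 11 of 17 MYC and mitogen genes, and 7 of 17 of the quiescence list. Ccnd2 was 0.72 higher in active tumours (-1.04 to 2.47) and 0.04 higher without active replicate 3. Ccnd3 and Cdkn2c were 0.18 and 0.38 higher, and -0.10 and -0.07 without that tumour. Ccnd1 (-0.22), Cdk4 (-0.14), Cdk6 (-0.45), Cdkn1b (-0.02), Cdkn1c (0.14) and Cdkn2d (-0.03) all had intervals that included 0.

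Between active and sedentary tumours of week 18, 0 of 10 members were called, limma called 0% of 18939 genes, and 0 members had an unadjusted p under 0.05 against 1131 genes (5.97%). Cdkn2d was higher in active tumours without overlap, against 13.6% of genes, at 609, 376 and 404 normalised reads against 314, 322 and 317. Its difference was 0.51 (SE 0.23, interval -0.06 to 1.07, limma adjusted p = 0.824), and 0.29 without active replicate 1. Cdk6 differed by -0.56 (-1.23 to 0.12), with 848, 1213 and 794 normalised reads in active and 1089, 1354 and 1767 in sedentary tumours. Cdkn1a was 0.57 higher in active tumours (-0.48 to 1.62) and Cdkn1b differed by -0.21 (-0.73 to 0.31). Cdkn1c differed by -1.24 (-4.30 to 1.81), and by 0.16 without sedentary replicate 1. Ccnd2 was 0.53 higher (-1.38 to 2.44), and -0.26 without active replicate 1. Ccnd1 (0.18), Ccnd3 (0.02), Cdk4 (0.03) and Cdkn2c (-0.17) had intervals that included 0. The replicate numbers of these tumours met the same check, and with the replicate block 0 members and 0 genes were called as well.

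The activity effects of both weeks were compared in 1 fit over 12 tumours, which called 0 of 10 members against 0.0104% of 19241 genes. Cdkn1a had the largest difference of effects, 1.49 (SE 0.65, interval 0.04 to 2.93, limma adjusted p = 0.770), the only member with an unadjusted p under 0.05 against 6.33% of genes. Its difference was 1.01 without week 12 sedentary replicate 1. Zmat3, a p53 target, had the smallest p of its list (0.82, limma adjusted p = 0.770), and 12 of 15 genes of the list had a positive difference. That direction was not particular to this list. It held for 18 of 18 S phase, 10 of 12 cyclin E and further INK4, 13 of 17 pocket protein and E2F and 13 of 17 MYC and mitogen genes, and for 9 of 17 of the quiescence list. The other members ran from Cdkn1c at -1.39 (-4.71 to 1.93) to Cdkn2d at 0.54 (-0.55 to 1.63), with Ccnd1 at 0.39 (-0.92 to 1.70).

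**Figure D5:**
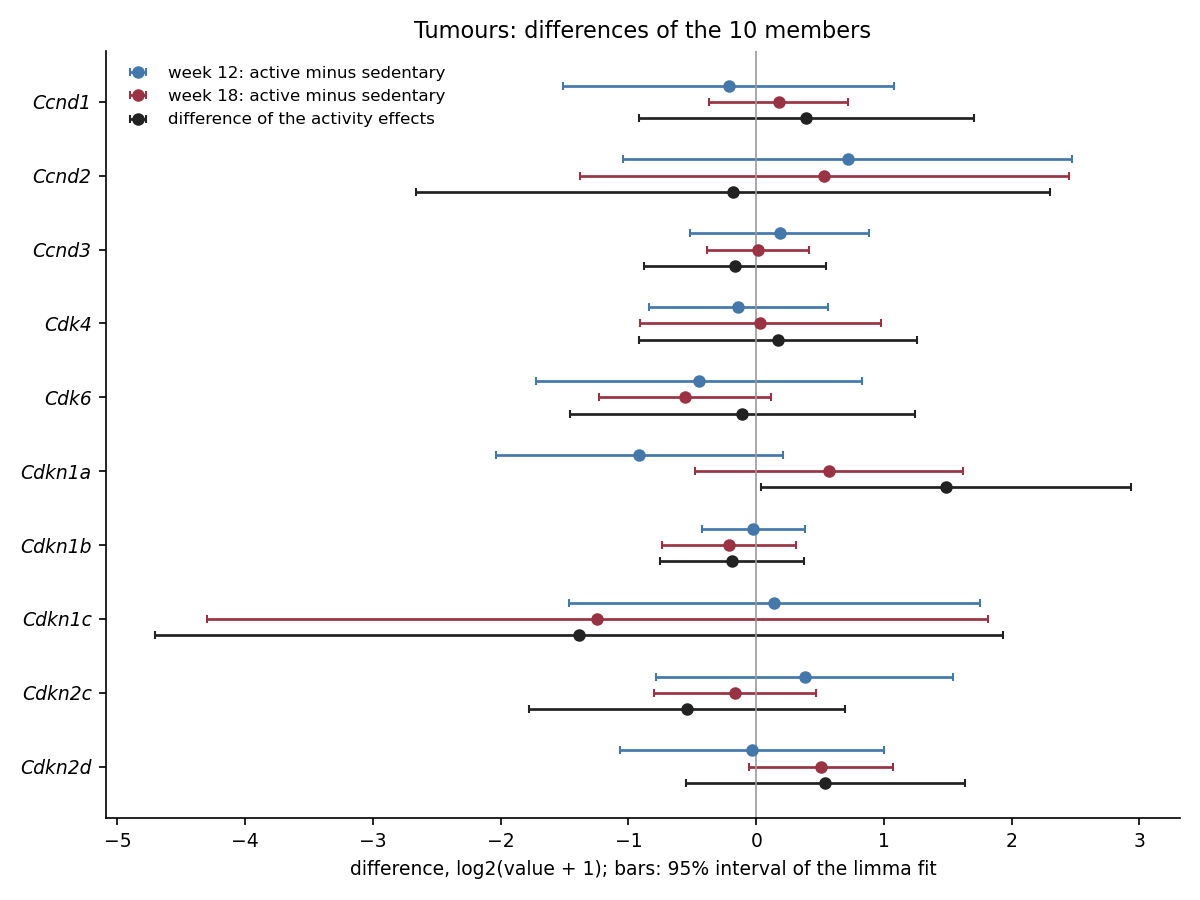
Points give the difference of each member on the log2(value + 1) scale between active and sedentary tumours at week 12, at week 18 and between these effects (week 18 minus week 12), with bars for the 95% interval of the limma fit and a line at 0. Only the difference of effects for Cdkn1a (0.04 to 2.93) has an interval to 1 side of 0.

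Between weeks, 0 of 10 members were called in sedentary tumours (0% of 18968 genes) and 0 of 10 in active tumours (0% of 19188 genes). In active tumours Cdkn1a was 0.99 higher at week 18 (SE 0.35, interval 0.10 to 1.88, limma adjusted p = 0.412), at 2428, 1023 and 1852 normalised reads against 738, 909 and 882, so the weeks did not overlap. It was the 1 member with an unadjusted p under 0.05, against 12.1% of genes, and the 1 member without overlap, against 24.8% of genes. In sedentary tumours Cdkn1a differed by -0.49 (-1.74 to 0.76), and no member had an unadjusted p under 0.05, against 943 genes (4.97%). Cdkn1b was higher at week 18 without overlap there, against 10.5% of genes, with a difference of 0.30 (-0.19 to 0.79) and of 0.13 without week 18 sedentary replicate 1. Cdk4 was 0.61 higher in active tumours (-0.17 to 1.38) and 0.44 in sedentary ones (-0.45 to 1.33).

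No gene of the 6 surrounding lists was called in any tumour comparison. All 18 S phase and mitosis genes were higher in active than in sedentary tumours at week 18 (list median 0.44, against 0.01 over all genes), with Rrm2, a subunit of ribonucleotide reductase, at 0.81 (limma adjusted p = 0.824). They were also all higher at week 18 than at week 12 in active tumours (list median 0.82, against -0.03), with Rrm2 at 1.08 (limma adjusted p = 0.412), and these comparisons share the week 18 active tumours. Week 12 active replicate 3, the tumour with high lymphocyte and adipocyte markers, had the lowest S phase sum of the 12 tumours (22144 normalised reads, against 33296 and 41922 in its group), and week 18 active replicate 1 had the highest (66346). Between the weeks in active tumours the list median was 0.51 without the first and 0.57 without the second of these, with 18 of 18 genes higher in both fits. For the activity difference at week 18 the list median was 0.23 without active replicate 1 (15 of 18 higher) and 0.19 without sedentary replicate 2 (14 of 18 higher). It was 0.65 without active replicate 3 and 0.67 without sedentary replicate 1. At week 12, 15 of 18 were lower in active tumours (list median -0.14), but 16 of 18 were higher without active replicate 3 (0.14) and 11 of 18 without sedentary replicate 1 (0.06). All 12 cyclin E and further INK4 genes were higher at week 18 in active than in sedentary tumours (list median 0.25, and 0.10 with 8 of 12 higher without sedentary replicate 2) and than in week 12 active tumours (list median 0.63, and 0.31 without week 12 active replicate 3), with Ccne2 (0.55) and Cks1b (0.90) having the smallest p of each. Of the pocket protein and E2F list, Lin54, a subunit of the MuvB complex, had the smallest p at week 18 (0.29, limma adjusted p = 0.824), and of the MYC and mitogen list Mycl (-1.39, limma adjusted p = 0.824). At week 12 those places were taken by E2f2 (0.34) and Mxd4 (-0.23), with Cdkn2a at -1.69, Tyms at -0.72 and Egr1 at -0.93 for the other lists, all with a limma adjusted p of 0.970. For the p53 and the quiescence lists at week 18 they were Pmaip1 (1.35) and Nr4a1 (0.65), with a limma adjusted p of 0.824. Between the weeks in sedentary tumours they were Ccnh (0.26), Lin9 (0.27), Pcna (0.26), Gdf15 (0.38), Nr4a2 (1.00) and Mxi1 (0.32), with limma adjusted p of 0.958 for Nr4a2 and 0.982 for the others. In active tumours they were Lin54 (0.47), Bax (0.56), Tob1 (0.45) and Mxi1 (0.46) beside those named above, with limma adjusted p from 0.412 to 0.433. For the difference of activity effects all 18 S phase and mitosis genes were positive (list median 0.74, against -0.02, 0.34 without week 12 active replicate 3 and 0.38 without week 18 sedentary replicate 2), with Rrm2 at 0.89, and Cks1b (0.82), Lin54 (0.45), Klf2 (-1.79) and Mycl (-2.22) had the smallest p of their lists, with a limma adjusted p of 0.770.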

How the data were processed

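Values of 21 libraries came from 4 tables, each a normalised signal per gene that the authors made, per the file headers. In every column the values were whole multiples of 1 step, so the deposited signal is a read count divided by 1 factor per library, and 100% of values came out whole within 0.1 read. The authors' tables also hold a log2 fold change and an adjusted p-value per gene, and DEBrowser is named in the labels' descriptions. The genome build mm10 is named in the submitters' processing notes, while the aligner, counter and strand setting are not given in the sources used here. The mRNA kit kept strand, and RNA came from TRIzol (tumours) or micro-scale columns (HSC), per the labels' protocols. Each HSC table held 21 symbols turned into dates, which are not named.

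limma 3.58.1 (lmFit and eBayes, R 4.3.3) was fitted across all genes on log2(value + 1), which understates the change of low genes, with a mean minimum of 1 and two-sided p-values adjusted over all genes tested. Single-table comparisons used the deposited scale. Transplant against sedentary HSC and the comparisons of weeks used recovered reads joined by symbol and brought to 1 scale by median-of-ratios factors, and values per library are on 1 such scale per tissue. edgeR 4.0.16 (quasi-likelihood) and DESeq2 1.42.0 on recovered reads were alternatives. The fits were tested on simulated data. Levels per kb use the union of GENCODE M21 exons.

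The members and lists were chosen with earlier results of these data known. Named list genes are up to 4 per list and comparison past the threshold, or the 1 with the smallest p. The 3 genes most like a member were to be named for members past the limma threshold in HSC, or for Cdk6 and Cdkn1c if none passed. Labels call the replicates biological but name no animals, so p-values measure the spread between these samples. Replicate numbers met the check for pairing where the deviations of all 3 same-numbered pairs correlated above 0.1. That held for transplant with active HSC (0.105, 0.116 and 0.318) and week 18 active with sedentary tumours (0.164, 0.159 and 0.139). The differences, SE, intervals and p-values given are nevertheless from fits without the replicate block, which was run only as an alternative. Libraries of unlike number were not correlated, so this check cannot show that the samples are pairs. Leaving out each library, other scalings, filters and pseudocounts were also tried.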

Additional observations from a re-analysis of the deposited data

How the results depend on the processing

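Over 125 alternative fits, 6 put a member past the threshold, all in transplant against sedentary HSC, where limma called 0. The count of members there was 2 of 10 with a mean minimum of 10 (Ccnd1 and Cdkn1b, against 15.1% of all genes), 3 with edgeR (19.3%), 3 with DESeq2 (24.8%), 2 with replicates 1 and 2 alone (14.7%), 1 with a term for replicate 3 (Cdkn1b, against 8.46%, chosen after seeing the data), and 0 to 4 on leaving out each library in turn (1.77% to 12.6%). The number of all genes called in that comparison ran from 1553 in limma to 3181 with DESeq2 and 3 with the spread pooled over 9 HSC libraries. In active against sedentary HSC it was 257 with DESeq2 and in transplant against active HSC 1107, where limma gave 0 and 7. In tumours DESeq2 called 208 genes at week 12 (limma 99), 52 at week 18 (0), 174 for the difference of effects (2), and 172 and 886 between the weeks of sedentary and active tumours (0 and 0). Leaving out 1 library gave 236 to 1674 genes in transplant against sedentary HSC, 0 to 79 in transplant against active HSC and 9 to 71 in week 12 tumours.

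With the replicate block no member was called in any of the 8 comparisons. In comparisons whose numbers did not meet the pairing check, it gave 95 genes in place of 1553 (transplant against sedentary HSC) and 0 in place of 99 (week 12 tumours). For the difference of effects, where the check was not run, it gave 0 in place of 2. In the comparisons that met the check it gave 0 in place of 7 (transplant against active HSC) and 0 in both fits (week 18 tumours). The 13 member values with an unadjusted p under 0.05, no overlap between groups or a call by a count test had the same sign under every alternative run, and of all 80 member values 35 changed sign under at least 1. With the longest transcript as length, chosen after seeing the data, the median shares moved to 41.2% for Ccnd2 and 51.3% for Ccnd3 in HSC and 15.8% for Ccnd3 in tumours. Cdkn1c was the member nearest the depth limit, at 22.8 to 46.7 normalised reads in HSC. DESeq2 gave Cdkn1c no adjusted p in 3 tumour comparisons.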

Other observations

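Ccnd1 passed the count tests and not limma, so the rule for genes of like pattern did not name it, and its neighbours were looked up after its values were seen. Over the 9 HSC libraries they were Fgd2 (Pearson r = 0.990), Utp14a (0.986), a factor of ribosomal RNA processing, and Hnrnpa1 (0.983), an RNA-binding protein of splicing. These 9 libraries share groups and depth, and the r values are a description.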
